A study of Mus musculus with 2 samples.

Results

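The ABHD genes encode hydrolases with an alpha/beta hydrolase domain, and 8 of them were measured here in untreated TUBO cells: Abhd2, Abhd3, Abhd4, Abhd5, Abhd6, Abhd8, Abhd11 and Abhd12. They are 8 of the 31017 genes in the deposited count table and 8 of its 20 genes with an ABHD symbol. The members were chosen by name and with their measured levels known, since Abhd2 stood out as one of the most abundant genes, so their levels are given as a description and none was tested. TUBO is a cloned mouse mammary carcinoma line, established from a tumour of 1 BALB-neuT mouse, which carries a rat Her2/neu transgene driven by the MMTV promoter. The cells were untreated and were grown in 2D on plastic. There is 1 group, with 2 libraries of the same line and condition, and the labels do not say whether these came from separate cultures. No condition is therefore compared with another, and every spread between libraries may be technical.

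Most ABHD proteins are serine hydrolases, with a catalytic serine held in a sharp turn of the fold. They cut ester, amide or thioester bonds in lipids and lipid-modified proteins, and the family is known for breaking down signalling lipids such as the endocannabinoid 2-arachidonoylglycerol. In epithelial cells such enzymes shape membrane phospholipids, stored triglyceride and mitochondrial metabolism, and several members sit at a named step of one of these pathways.

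Replicate 1 held 35453278 counts and replicate 2 held 34098259. Levels are given in CPM, a gene's counts scaled to the library's total, and levels of different genes are compared as CPM per kilobase of a gene's merged exons. Detection required at least 1 CPM in each library. Where no count was found, the true level may still reach that of 3 counts, 0.0842 CPM in replicate 1 and 0.0885 in replicate 2. Such limits and all intervals cover counting error only. All 4 epithelial markers were detected, from Cdh1 at 169 to Krt18 at 847 CPM per kilobase. Their summed level was 1795 and 1754 CPM per kilobase in replicates 1 and 2, against 0.844 and 0.919 for 5 fibroblast genes. It was 0.0875 and 0.0766 for 4 leukocyte genes, 0.0270 and 0.0379 for 3 endothelial genes and 0.00625 and 0.0345 for 4 adipocyte genes. Of these markers, Krt8 (adjusted p = 0.000824) and Cdh1 (5.08e-09) were called lower in replicate 2 by the exact binomial test used for the libraries, and neither by edgeR's exact test (adjusted p = 1.0 for each). The latter takes its expected spread from these same 2 libraries, so it is no independent check. Pdgfra alone of the 16 non-epithelial genes was detected. Col1a2, Dcn, Lum, Ptprc, Adgre1, Cd3e, Cdh5, Kdr, Lep and Plin1 had no count.

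The promoters of the most abundant member and of the least abundant detected member per kilobase are shown to set the start regions at both ends of the scale side by side. RefSeq windows of 300 bases (GRCm38.p6), each holding an annotated start, matched 6 of the 8 members by symbol: Abhd2, Abhd4, Abhd5, Abhd6, Abhd8 and Abhd11. The Abhd2 window is chr7:79273016-79273315 on the plus strand, and the first of the Abhd6 windows is chr14:8002638-8002937 on the plus strand. Both are written 5′ to 3′, with capitals marking the GC box GGGCGG, searched on both strands.
Abhd2: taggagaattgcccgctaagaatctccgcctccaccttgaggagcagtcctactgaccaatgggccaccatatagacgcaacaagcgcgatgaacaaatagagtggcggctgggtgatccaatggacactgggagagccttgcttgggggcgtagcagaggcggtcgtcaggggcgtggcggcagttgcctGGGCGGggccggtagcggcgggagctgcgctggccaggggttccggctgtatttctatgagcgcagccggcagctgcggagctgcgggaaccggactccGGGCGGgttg
Abhd6: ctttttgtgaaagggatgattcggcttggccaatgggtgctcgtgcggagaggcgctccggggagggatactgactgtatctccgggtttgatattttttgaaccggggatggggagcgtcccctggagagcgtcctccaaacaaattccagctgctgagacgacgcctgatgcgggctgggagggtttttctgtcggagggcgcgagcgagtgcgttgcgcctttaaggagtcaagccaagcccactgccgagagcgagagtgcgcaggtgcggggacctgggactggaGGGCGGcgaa

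The Abhd2 window held 2 GC boxes and 24 CpG dinucleotides, and the printed Abhd6 window 1 GC box and the same 24 CpG. The other Abhd6 window held 26 CpG. A link between CpG number and level was not tested. Over all 32851 windows the median was 7 CpG, and 80.0% of windows had fewer than 24. All 10 windows of the 6 matched members had more CpG than that median, from 14 in an Abhd11 window to 32 in the Abhd5 window. Of all windows, 63.7% had fewer than 14. Adjacent Abhd11 windows overlap, as do the Abhd6 windows, so the 10 are not separate regions. The median covers windows of all genes, detected or not, while the 6 matched members were all detected. A GC box was present in 35.7% of all windows. Each of the 6 members had it in at least 1 window, a count by gene that is not comparable with that share by window. Among the Abhd11 windows only the first held it, and the Abhd6 windows overlap and hold the same box. The CCAAT box (CCAAT, both strands) occurred in 37.4% of all windows. The Abhd2 window and an Abhd4 window each held 2, and an Abhd6 and an Abhd11 window each held 1. None of the 10 windows held the TATA box TATAAA, which 13.6% of all windows hold, or the AP-1 site TGANTCA, found in 7.81%. The AP-2 site GCCNNNGGC, found in 16.6% of all windows, was in 1 window each of Abhd4, Abhd8 and Abhd11. The E box CACGTG (7.15% of all windows) was in none of the 10. Matches of different motifs were counted separately even where they overlap, and a match describes these letters and not binding.

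Abhd2 stood far above every other member in both libraries. Its product hydrolyses 2-arachidonoylglycerol and is known from sperm, where progesterone triggers that activity. It had 101170 counts in replicate 1 and 96506 in replicate 2, or 2838 and 2846 CPM. With the TMM scaling factors used here the libraries gave nearly the same value, with a mean of 2842 ± 5.11 CPM (SD, n = 2), which gave it rank 10 among all genes of the table by CPM. The small spread depends on the scaling. The log2 ratio of replicate 2 to replicate 1 was 0.004 with TMM factors and -0.012 with total counts. In bulk RNA, fewer cells expressing a gene and less of its RNA per cell cannot be told apart. Per kilobase its level was 268 and 269 in replicates 1 and 2, a mean of 269 ± 0.483 (SD, n = 2). On that scale it was number 71 of 21782 protein-coding genes and above 99.4% of the 11004 detected ones. Its merged exons are 10573 bases long, its coding transcript 6877 bases and the coding sequence 1275 bases, so 5602 bases of the transcript are untranslated. The gene lies on chromosome 7, 79273199 to 79365508, plus strand (GRCm38, ENSMUSG00000039202.12), and its coding transcript has 11 exons.

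Abhd2 also took most of the family's counts. Of the counts of the 8 members it held 90.8% in replicate 1 (95% Wilson interval 90.6% to 91.0%) and 91.0% in replicate 2 (90.8% to 91.1%). Of the counts of all 20 ABHD genes it held 81.3% (81.1% to 81.5%) and 81.6% (81.4% to 81.8%). Per kilobase, its share of the 20 genes was 57.3% and 57.8%, and its share of the 8 members 74.8% and 75.3%. Its share of all counts in the library was 0.285% and 0.283%.

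**Figure D1:**
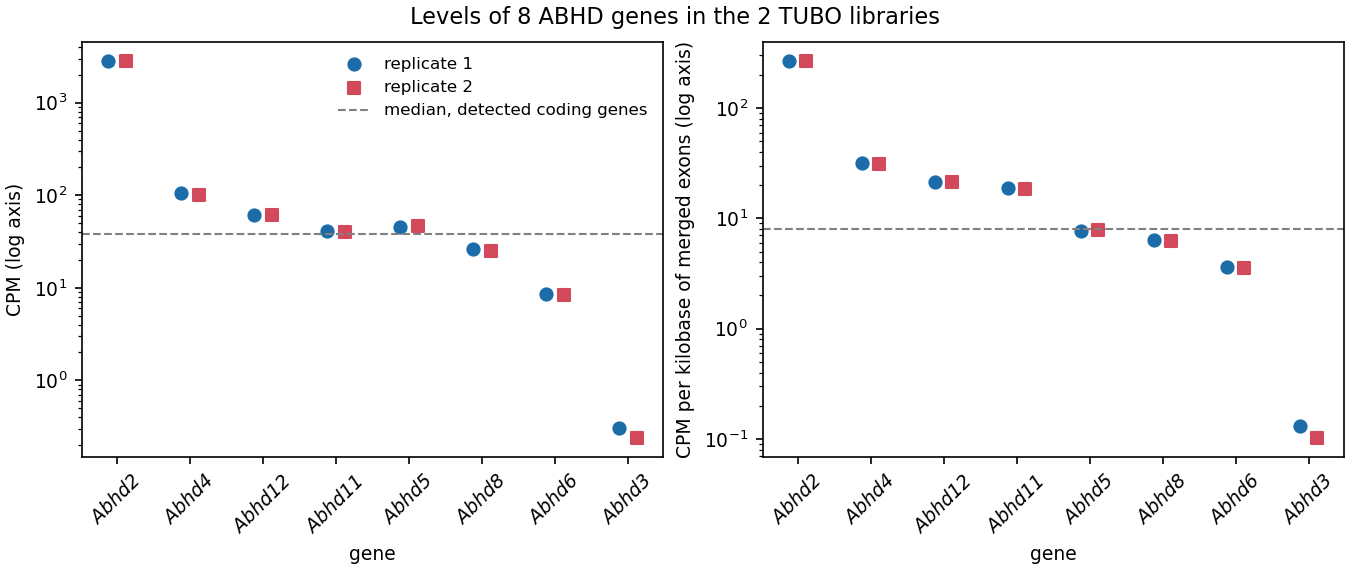
Level of each of the 8 members in replicate 1 (circles) and replicate 2 (squares), as CPM (left) and CPM per kilobase of merged exons (right), both on log axes. The dashed line is the median of detected protein-coding genes (38.3 CPM, 7.99 CPM per kilobase), Abhd2 lies far above it at 2842 CPM and Abhd3 far below it at 0.272 CPM.

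Of the 8 members, 7 were detected (87.5%), against 37.7% of all genes and 50.5% of protein-coding genes in the table. The members were picked with these levels known, so nothing is read from that excess. Abhd3 was the member outside the detection minimum, and Abhd6 at 8.54 CPM was the nearest inside it. The median of the 7 detected members was 18.7 CPM per kilobase, and 13.2 without Abhd2, beside 7.99 for detected protein-coding genes. Above that background median were 4 of the 8 members.

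The second member in order was Abhd4, which encodes a lipase acting on N-acyl phospholipids in a route to N-acylethanolamines. It had 3750 and 3427 counts in replicates 1 and 2, or 32.1 and 30.8 CPM per kilobase. Both values lay above those of every member but Abhd2, and the libraries of Abhd4 and of its neighbours in the order did not overlap. Abhd2 exceeded Abhd4 by 8.37 and 8.73 times per kilobase, a log2 ratio of 3.10 ± 0.04 (SD, n = 2). This ratio rested on the gene length used, and was 10.1-fold with each gene's longest transcript but 3.54-fold with the median length of its transcripts. Abhd2 was first and Abhd4 second with all 3 lengths. Abhd4 (ENSMUSG00000040997.13) lies on chromosome 14, 54254188 to 54270637, plus strand.

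Abhd12 and Abhd11 followed, close to each other. Abhd12 encodes a lipase of lysophosphatidylserine whose loss causes the human neurodegenerative disease PHARC. Its 2160 and 2050 counts gave 21.5 and 21.4 CPM per kilobase in replicates 1 and 2, a spread of 0.0384 (SD, n = 2). Abhd11 encodes a mitochondrial hydrolase that helps to keep the 2-oxoglutarate dehydrogenase complex lipoylated and active. Its 1457 and 1364 counts gave 18.8 and 18.5 CPM per kilobase, below both libraries of Abhd12. Abhd12 exceeded Abhd11 by 1.15 ± 0.0111 times. Abhd12 (ENSMUSG00000032046.15) lies on chromosome 2, 150832493 to 150904741, minus strand, and Abhd11 (ENSMUSG00000040532.14) on chromosome 5, 135009152 to 135012175, plus strand. The gene models of Abhd11 and a gene on the opposite strand, Gm43372, share 874 bases, 40.2% of the Abhd11 exons, and Abhd11os shares 62 bases. Those 2 genes were not analysed here, and whether counting used strand is not stated in these sources, so the Abhd11 level is uncertain.

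Abhd5 and Abhd8 lay near the typical level of a detected gene. Abhd5, also called CGI-58, lacks the catalytic serine and acts as the coactivator of the triglyceride lipase made by Pnpla2. Its 1635 and 1579 counts gave 7.70 and 7.82 CPM per kilobase in replicates 1 and 2. With the median transcript length in place of merged exons Abhd5 moved above Abhd11 (44.1 against 27.7 CPM per kilobase), because its merged exons of 5956 bases shrink to a median transcript of 1048 bases. Exons of Abhd5 overlap the antisense gene A730085K08Rik over 950 bases, 16.0% of their length, and that gene had only 11 and 19 counts. Abhd8 had 929 and 854 counts, or 6.39 and 6.17 CPM per kilobase, below both libraries of Abhd5. Abhd5 (ENSMUSG00000032540.16) lies on chromosome 9, 122351608 to 122381524, plus strand, and Abhd8 (ENSMUSG00000007950.9) on chromosome 8, 71456705 to 71463655, minus strand.

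Abhd6 was the lowest detected member. Its product is a membrane hydrolase of monoacylglycerols, 2-arachidonoylglycerol among them, and of the lysosomal lipid BMP. Its 307 and 287 counts gave 8.61 and 8.46 CPM, or 3.64 and 3.58 CPM per kilobase. Abhd8 exceeded it by 1.74 ± 0.0207 times. Below Abhd6 per kilobase were 26.3% of detected protein-coding genes. The gene (ENSMUSG00000025277.14) lies on chromosome 14, 8002902 to 8056763, plus strand.

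Abhd3 was close to absent. It encodes a phospholipase for phosphatidylcholines with medium-length or oxidised chains. It had 11 counts in replicate 1 and 8 in replicate 2, or 0.309 and 0.236 CPM, above the level that a count of 0 allows and below the detection minimum in both libraries. Per kilobase it stood at 0.132 and 0.101, lower than Abhd6 by 27.5 and 35.4 times. The gene (ENSMUSG00000002475.16) lies on chromosome 18, 10642092 to 10706771, minus strand, and none of its 50-base transcript windows was found in another gene's transcripts.

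No 2 neighbours in the order of the 8 members overlapped between libraries on the scale of merged exons. Shared sequence was small for most members. Abhd3, Abhd4 and Abhd12 shared none of their 50-base windows with transcripts of other genes, Abhd8 1.51%, Abhd2 5.11% and Abhd6 5.30%. The shares were 15.1% for Abhd5 and 32.8% for Abhd11, most often with the overlapping genes A730085K08Rik and Gm43372.

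Of the 12 further ABHD genes measured, 9 were detected (75.0%), beside 50.5% of all protein-coding genes. The whole family ran from Abhd2 down to genes with a handful of counts. Abhd1 was not analysed here. The 3 depalmitoylase genes Abhd17a, Abhd17c and Abhd17b, whose products remove palmitate from proteins such as N-Ras, stood close together at 24.6 ± 0.00276, 22.8 ± 0.479 and 17.9 ± 0.143 CPM per kilobase (SD, n = 2). They interleaved with the members, Abhd17a and Abhd17c falling between Abhd4 and Abhd12, and Abhd17b just below Abhd11. Abhd16a, which makes lysophosphatidylserine, the substrate of Abhd12, was at 16.7 and 16.9 CPM per kilobase in replicates 1 and 2, and Abhd13 at 15.2 and 14.4.

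The remaining family members were lower. Abhd14b stood at 4.87 and 4.29 CPM per kilobase in replicates 1 and 2, Abhd14a at 3.61 and 3.77, and Abhd10, a mitochondrial depalmitoylase gene, at 2.48 and 2.72. Abhd14a and Abhd6 overlapped between libraries, so their order is not resolved. The 12 further genes were placed with merged exons only. Their order may change with another gene length even where libraries did not overlap. Abhd18 was at 0.539 and 0.670 CPM per kilobase. Abhd15 (32 and 31 counts) and Abhd16b (19 and 10 counts) were below 1 CPM and overlapped each other, and Abhd12b had no count. Above the median of detected protein-coding genes were 5 of these 12 genes, as were 4 of the 8 members.

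**Figure D2:**
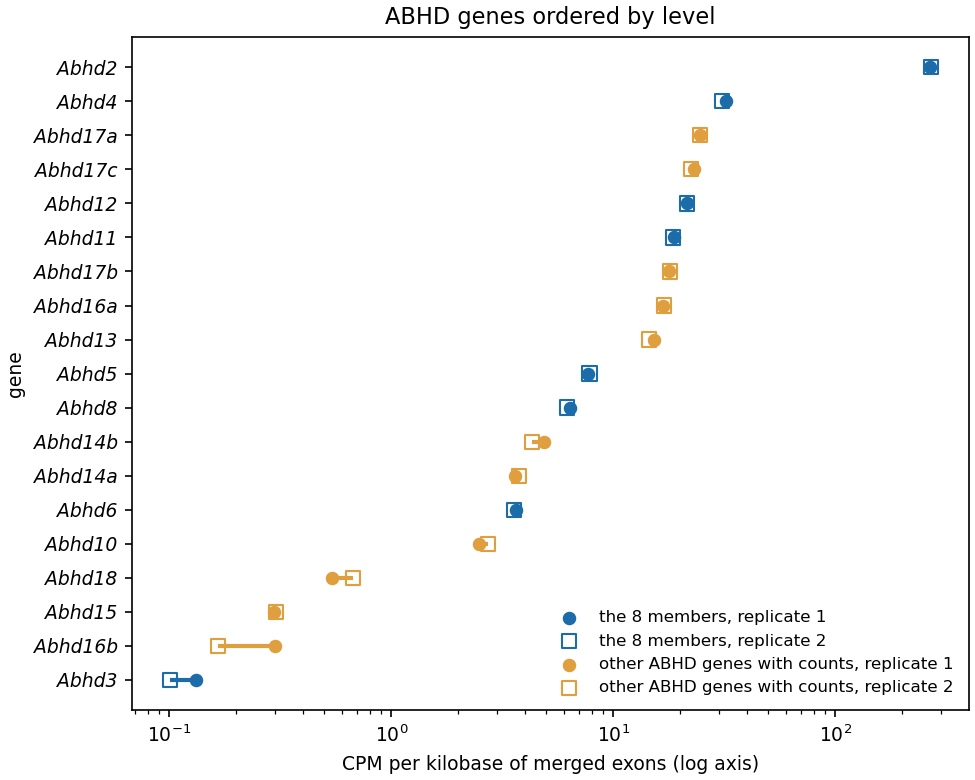
CPM per kilobase of merged exons (log axis) of the 8 members (blue) and the 11 other ABHD genes with counts (orange), ordered by their mean, with replicate 1 as a filled circle, replicate 2 as an open square and a line between them. Abhd2 at 269 stands apart from Abhd4 at 31.5. Among genes with few counts the spread between libraries is wide for Abhd16b (19 and 10 counts) and narrow for Abhd15 (32 and 31 counts).

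No member passed the test for a difference between the 2 libraries. An exact binomial test given the scaled library sizes was run over the 13336 genes with enough counts, which included 7 members and left out Abhd3. With Benjamini-Hochberg adjustment it called 0 of the 7, beside 8.13% of all genes tested (1084 genes, 489 higher and 595 lower in replicate 2). The share of calls higher in replicate 2 depended on the scaling, being 45.1% with TMM factors and 28.9% with total counts. At an unadjusted p under 0.05 there were also 0 of the 7, beside 2649 of the 13336 genes tested. With total counts in place of TMM factors Abhd4 reached an unadjusted p of 0.0307 in that exact test and was still not called. When the dispersion estimated from the same libraries was used, edgeR's exact test called 0 of the 7 and 0.142% of all genes (19 genes, all higher in replicate 2). Such a dispersion takes in the differences being tested, so the loss of most calls was built in. At an unadjusted p under 0.05 edgeR's test passed 0 of the 7 and 736 of the 13336 genes tested. With only 7 members, a count of 0 cannot be told apart from any of these background shares, and nothing is read from it.

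The largest difference among the 7 was that of Abhd4, with 105 CPM in replicate 1 and 101 CPM in replicate 2. Its log2 ratio of replicate 2 to replicate 1 was -0.06 (exact 95% interval -0.13 to 0.01), with a Benjamini-Hochberg adjusted p of 0.343 in the exact binomial test. For Abhd2 the log2 ratio was 0.004 (-0.009 to 0.016), the narrowest interval of the 7. For Abhd6 the ratio was -0.03 with the widest interval of the 7, -0.26 to 0.21. For Abhd3, which was left out of the test, the interval ran from -1.91 to 1.06, so its few counts were compatible with any ratio in that range. The ratios of the 7 lay between -0.06 and 0.02 with a median of -0.02, and the median over all genes tested was -0.002.

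**Figure D3:**
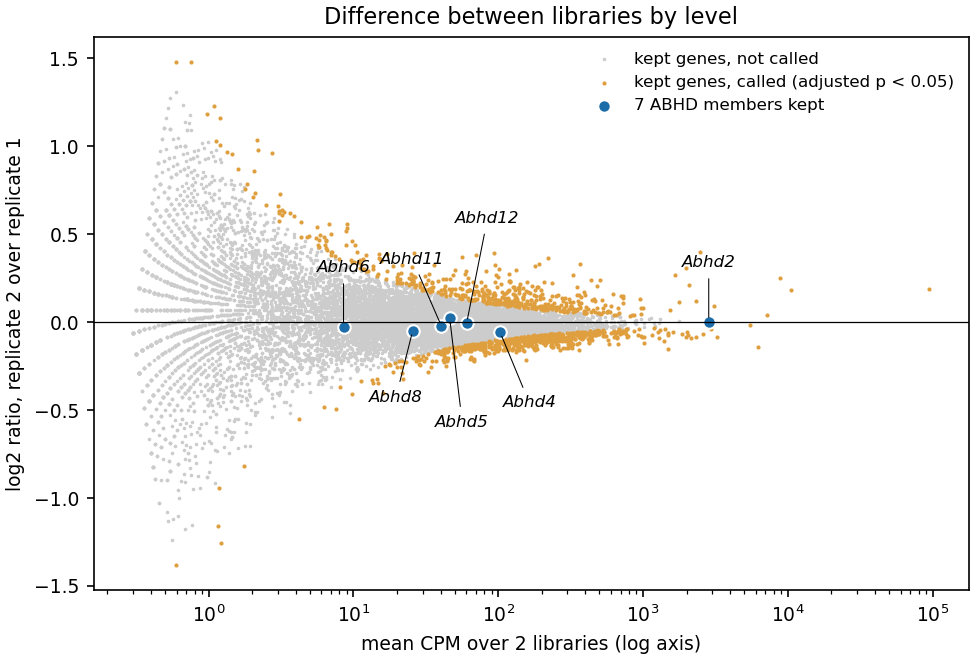
Log2 ratio of replicate 2 to replicate 1 against mean CPM (log axis) for the 13336 genes tested, with genes called at an adjusted p under 0.05 in orange, genes not called in grey and the 7 tested members in blue. The members lie between -0.06 and 0.02 across levels from 8.54 to 2842 CPM, and none is among the called genes.

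The genes nearest to Abhd2 in level included 3 ribosomal protein genes. By mean CPM per kilobase over the 2 libraries, the 3 protein-coding genes just above it were Bsg (271 ± 7.15), which encodes basigin, a partner of lactate transporters, the ribosomal protein gene Rps26 (270.2 ± 9.63) and Ctsd (269.9 ± 3.28), which encodes cathepsin D. The 3 just below were the linker histone gene Hist1h1b (267 ± 8.65) and the ribosomal protein genes Rpl28 (265 ± 5.41) and Rpl35 (264 ± 7.25). The largest log2 difference of these 6 from Abhd2 was -0.03, and with TMM factors each had a wider spread between libraries than Abhd2. Their likeness is one of level only, over 2 libraries of 1 condition. Next to the other members in level were Hpcal1 and Anapc2 for Abhd4, Smim19 and Uap1l1 for Abhd12, Col18a1 and Sra1 for Abhd11, Foxn2 and Fkbp15 for Abhd5, Snapc4 and Ap1ar for Abhd8, Haus1 and Naif1 for Abhd6, and Pnp2 and Rsph10b for Abhd3.

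Abhd2 lay above its 4 nearest measured protein-coding neighbours on chromosome 7. It was chosen with its level known, above 99.4% of detected protein-coding genes, so that place was close to fixed in advance. The nearest on its upstream side was Mfge8, a milk-fat globule gene whose start lies 124 kb away and which is read in the opposite direction, at 143 and 134 CPM per kilobase in replicates 1 and 2. Beyond it Hapln3, a matrix link protein gene, stood at 0.343 and 0.260. On the downstream side the retinal gene Rlbp1, 9361 bases from the end of Abhd2, had 6 and 3 counts, and the DNA repair gene Fanci was at 5.48 and 5.38 CPM per kilobase. The highest of the 4, Mfge8, was at 138 CPM per kilobase on average, against 269 for Abhd2.

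The distance to a neighbour and its level varied among the other members. Abhd3 ends 12 bases from the end of the splicing gene Snrpd1, which stood at 26.8 and 27.1 CPM per kilobase while Abhd3 was at 0.132 and 0.101. On the other side of Abhd3, Mib1, a ubiquitin ligase gene of Notch signalling, was at 20.6 and 22.0. Abhd4 starts 83 bases from the start of Dad1, a subunit gene of the oligosaccharyltransferase, and the pair stood at 31.5 and 15.1 CPM per kilobase on average. Abhd12 starts 658 bases from the start of the replication gene Gins1 (9.67) and ends 734 bases from the end of the glycogen phosphorylase gene Pygb (20.7). Abhd12 itself was at 21.4, close to Pygb and above Gins1. Abhd8 starts 1303 bases from the mitochondrial ribosomal gene Mrpl34 (37.9), against 6.28 for Abhd8 itself. Abhd11 has as its nearest neighbours on 1 side the tight junction genes Cldn3 (205) and Cldn4 (185), both well above its 18.7.

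Of the 32 neighbours, 2 on each side of each member, 24 were detected and 3 had no count. Over all protein-coding genes 50.5% were detected. In the same exact binomial test 5 of the 25 kept neighbours were called between libraries with Benjamini-Hochberg adjustment, beside 8.13% of all genes tested, and these were Mfge8, Cldn3, Cldn4 and Pygb, all lower in replicate 2, and Mib1, higher in replicate 2. With edgeR's exact test, whose dispersion takes in the differences between libraries, these 5 genes were not called (adjusted p = 1.0 for each).

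The neighbours not named so far covered the range from no count to levels above their members. By Abhd3 lay Esco1 (8.90 CPM per kilobase) and, 345 kb away, Gata6 (no count). By Abhd4 lay Oxa1l (17.3), Olfr49 (0 and 7 counts) and, 1758 kb away, Olfr1507 (no count). By Abhd5 lay Ano10 (32.8), Snrk (6.24, 182 kb away), Tcaim (2.00, 424 kb away) and Topaz1 (no count, 366 kb away). By Abhd6 lay Rpp14 (5.06), Pxk (4.87), and Dnase1l3 and Gm45521 (each 1 and 0 counts), and by Abhd8 Babam1 (2228 and 2129 counts), Dda1 (22.3) and Ankle1 (6.45). By Abhd11 lay Bud23 (8.56) and Stx1a (2.94), and by Abhd12 Entpd6 (2.52) and Ninl (1.24).

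Genes of the endocannabinoid system, in which Abhd2, Abhd6 and Abhd12 act as hydrolases, were partly detected. Of 15 genes 9 passed the minimum (60.0%, beside 50.5% of all protein-coding genes of the table), none of the 4 receptor genes among them. The list's median was 1.36 CPM per kilobase, beside 0.422 for all protein-coding genes of the table. Among the hydrolases, Mgll, the main monoacylglycerol lipase gene of many tissues, was at 17.5 and 16.6 CPM per kilobase in replicates 1 and 2, and Faah, the anandamide hydrolase gene, at 2.37 and 2.48. Abhd2, chosen with its high level known, exceeded both, and Mgll exceeded Abhd6.

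Of the genes of 2-arachidonoylglycerol synthesis, Daglb stood at 1.72 and 1.94 CPM per kilobase, while Dagla had 1 count in replicate 1 and 0 in replicate 2. In the route that Abhd4 belongs to, Gde1 was highest of the list at 42.2 and 41.5 CPM per kilobase, Gdpd1 was at 6.14 and 6.29, and Napepld, the gene of the direct route, at 0.376 and 0.291. The lipid carrier gene Fabp5 was at 31.2 and 32.7. Ptgs2 had 1 count in replicate 1 and 0 in replicate 2. The cannabinoid receptor gene Cnr1 had no count, Cnr2 had 1 and 4, Gpr55 had 0 and 1 and Trpv1 had 3 and 0.

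Progesterone-related genes ranged from no count to levels above Abhd4. The nuclear receptor gene Pgr had no count in either library. Among the membrane-associated genes Pgrmc1 (40.8 ± 1.59 CPM per kilobase), Nenf (34.9 ± 1.57) and Pgrmc2 (26.5 ± 0.486) were detected at levels on either side of Abhd4. Of the PAQR receptor genes Paqr5 (0.590 ± 0.0619) and Paqr7 (0.573 ± 0.0753) passed the minimum of 1 CPM, Paqr6 and Paqr8 did not and Paqr9 had no count. Genes of the sperm calcium channel CatSper, which acts downstream of Abhd2 in sperm, were led by Catsper2 at 0.934 and 1.25 CPM per kilobase, and Catsper3 had 10 and 7 counts. In all, 8 of 16 genes of the list were detected.

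Of the lipolysis and lipid droplet genes around Abhd5, 10 of 19 were detected (52.6%), near the 50.5% of all protein-coding genes. The list's median was 0.296 CPM per kilobase, beside 0.422 for all protein-coding genes. Pnpla2, the lipase gene that Abhd5 serves, stood at 25.5 and 23.9 CPM per kilobase in replicates 1 and 2, above Abhd5 in both libraries. The droplet coat genes Plin3 (32.1 ± 1.35) and Plin2 (27.2 ± 0.385) were highest on the list, and Plin5 (24 and 19 counts) was below the minimum. Lipe, the hormone-sensitive lipase gene, was at 3.12 and 3.14. Pnpla1 and Pnpla3 each had 1 count in replicate 1 and 0 in replicate 2. The adipocyte coat gene Plin1, which holds Abhd5 on the droplet in fat cells, and G0s2, the inhibitor gene of the same lipase, had no count.

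The phosphatidylserine list, around Abhd12 and Abhd16a, had 5 of 9 genes detected (55.6%), beside 50.5% of all protein-coding genes. The list's median was 2.81 CPM per kilobase, beside 0.422 for all protein-coding genes. The acyltransferase gene Lpcat3 (17.8 ± 0.680 CPM per kilobase), the synthase gene Ptdss1 (15.6 ± 1.17) and the lysophosphatidylserine acyltransferase gene Mboat1 (15.6 ± 1.15) were highest on the list, each below both libraries of Abhd12. Ptdss2 was at 5.83 ± 0.465 and Pisd at 2.81 ± 0.0321, and Pla1a had 22 and 15 counts. Of the receptor genes for lysophosphatidylserine, P2ry10 and Gpr174 had no count and Gpr34 had 6 and 9 counts. The exact binomial test called Ptdss1 (adjusted p = 0.00702) and Mboat1 (0.0179), both lower in replicate 2, with Benjamini-Hochberg adjustment over all genes, of which it called 8.13%. With edgeR's exact test, whose dispersion takes in the differences between libraries, neither was called (adjusted p = 0.891 and 0.934).

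Around Abhd11, 14 of 15 genes of lipoylated dehydrogenase complexes were detected (93.3%), beside 50.5% of all protein-coding genes. The list's median was 11.1 CPM per kilobase, beside 0.422 for all protein-coding genes and 7.99 for detected ones. The subunit genes of the 2-oxoglutarate dehydrogenase complex were Ogdh (50.3 ± 0.587), Dld (27.8 ± 0.773) and Dlst (18.2 ± 0.193), the last close to the 18.7 of Abhd11. Lipoate is made and passed on by the products of Lias (5.49 ± 0.117), Lipt1 (2.69 ± 0.194) and Lipt2 (2.04 ± 0.353), all lower than Abhd11. Pdha1, of the pyruvate dehydrogenase complex, was at 43.6 ± 0.275. Ogdhl, a relative of Ogdh, had 1 count in replicate 1 and 0 in replicate 2.

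Other lipases and thioesterases were detected broadly, in larger shares than the 50.5% of all protein-coding genes. List medians were 12.1 CPM per kilobase for the thioesterases, 4.11 for the phospholipase list and 1.22 for other fold genes. The median of all protein-coding genes was 0.422. All 5 thioesterase genes that share a substrate class with the Abhd17 genes were detected, Ppt1 highest at 12.9 ± 0.154 CPM per kilobase and each below all 3 Abhd17 genes. Ppt2 was at 12.2, Lypla2 at 12.1, Lypla1 at 7.36 and Lyplal1 at 1.35. Of 12 phospholipase and lysosomal genes 11 were detected, led by Pld3 (26.5 ± 0.0836), which encodes an enzyme tied to the synthesis of BMP, the lysosomal lipid that Abhd6 degrades. Further detected genes of that list were Pnpla8 (6.29), Pla2g12a (5.41), Pla2g6 (4.58), Ddhd2 (4.34), Pnpla6 (3.88), Pla2g15 (2.28), Ddhd1 (2.06), Pnpla7 (1.68) and Pla2g4a (1.37), and Pld4 had 1 and 4 counts. Pla2g12a was called between libraries, at 4.93 and 5.89 CPM per kilobase in replicates 1 and 2 (exact binomial test, adjusted p = 0.0179). Of 13 other genes of the hydrolase fold 10 were detected, and Ephx1, the microsomal epoxide hydrolase gene, was highest at 82.6 and 81.1 CPM per kilobase. It was the nearest of these 13 to Abhd2, which exceeded it in both libraries. Ppme1 was at 18.6, Rbbp9 at 9.65, Ndrg3 at 7.96, Bphl at 4.68, Serhl at 1.25, Ephx4 at 1.22, Mest at 1.15, Ndrg4 at 1.03 and Ndrg1 at 0.653 CPM per kilobase. Ephx3 (19 and 24 counts) and Ndrg2 (3 and 4 counts) were below the minimum and Ephx2 had no count. Ndrg3 was called lower in replicate 2 (exact binomial test, adjusted p = 0.0330). With edgeR's exact test, whose dispersion takes in the differences between libraries, neither was called, with adjusted p = 0.679 for Pla2g12a and 1.00 for Ndrg3.

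**Figure D4:**
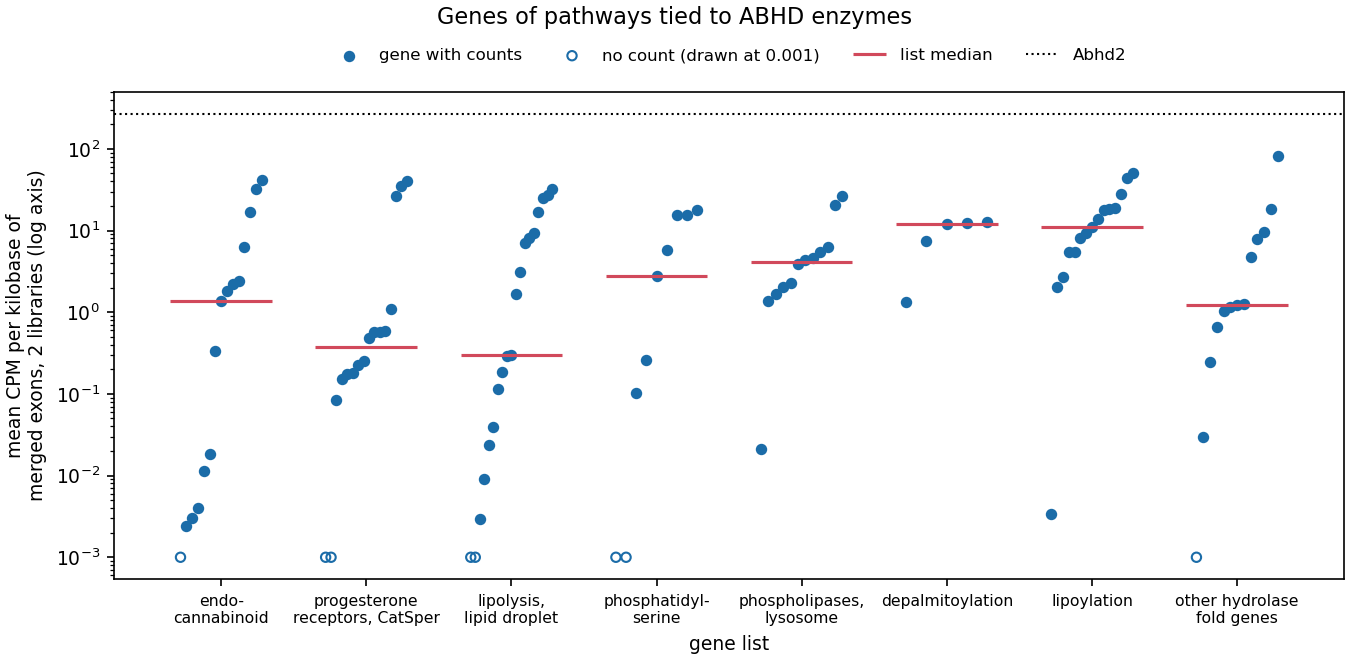
Mean CPM per kilobase of merged exons over the 2 libraries (log axis) for each gene of 8 lists around the members, with red bars at the list medians, open circles at the foot for genes with no count and a dotted line at Abhd2. No gene of these lists reaches the 269 of Abhd2, the nearest being Ephx1 at 81.9. Abhd2 was chosen with its high level known, so nothing is read from that.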

How the data were processed

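Libraries were made from poly(A) RNA of TUBO cells with a stranded kit, per the labels' protocols. The authors deposited raw counts per gene symbol for 2 libraries. Tools named in the submitters' processing notes, without role or order, are STAR 2.7.9a, featureCounts, FastQC 0.11.9, Cell Ranger 3.0.0 and R 4.1.1, with the build mm10. The annotation release, the strand setting and the treatment of multiply matching reads are not stated there, so overlapping or similar genes can gain or lose counts.

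edgeR 4.0.16 under R 4.3.3 gave TMM factors of 1.005 and 0.995, by which library totals were multiplied to obtain CPM. Merged exon lengths came from GENCODE M21 (GRCm38), where 98.3% of the genes had a single match by symbol. The libraries were compared gene by gene with a two-sided exact binomial test (scipy 1.17.1) over the 13336 genes kept by filterByExpr, with Benjamini-Hochberg adjustment. Log2 ratios used 0.5 added counts. The test was first run on simulated counts that held counting error only, as the test assumes, so few false calls were built in. There it called 12 of 13136 unchanged genes, 78 of 100 changed 1.5-fold and 92 of 100 changed 2-fold. That simulation does not show how the test behaves where libraries differ by more than counting error. The alternative, edgeR's exact test, used a coefficient of variation of 3.12% from the same libraries. That value takes in the differences being tested, so this test is no independent check of the calls.

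The rule for named genes took all members, every gene of lists of up to 13 genes and otherwise the 4 highest, the 2 lowest and genes without a count, the genes nearest in level and 2 neighbours on each side. Some list genes outside it were named for their role after their values were seen. The value of 1 list gene is not reported here. The members and lists were chosen with earlier results of these data known.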

Additional observations from a re-analysis of the deposited data

How the results depend on the processing

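The level of Abhd2 was 2842 CPM under TMM factors, total counts, DESeq2 1.42.0 size factors and upper-quartile factors, and 2838 to 2846 CPM when either replicate was left out. These scalings shift the 2 libraries in opposite directions, so their mean was bound to stay nearly the same. The equal means are therefore no check of the level. Leaving the genes Gm26917 and Gm42418 out of the library totals, an alternative chosen after seeing the data, raised it to 3175 CPM by construction. The log2 ratio of Abhd2 to Abhd4 per kilobase was 3.10 with merged exons, 3.33 with the longest transcript, 1.83 with the median transcript length and 4.78 with no division by length. Without either replicate it was 3.06 to 3.13. Detection counted 7 members under minimums of 0.5 and 5 CPM, total-count scaling and either left-out replicate, and 9 other ABHD genes, or 10 at a minimum of 0.5 CPM. The number of genes called between libraries was 1084 with the binomial test and 19 with edgeR's exact test and an estimated dispersion, and it was 972 to 1295 under the other scalings and without a filter. The share of calls higher in replicate 2 was 45.1% with TMM factors, 28.9% with total counts, 37.7% with DESeq2 size factors, 49.7% with upper-quartile factors and 100% for the 19 calls of edgeR's exact test. No member was called under any of these settings. No paired analysis was possible because there is only 1 group. The lengths come from 1 annotation, which may not be the authors', and 2 libraries give no measure of the spread between independent cultures.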
